A study of Mus musculus with 8 samples.

Results

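The 10 genes described here are the neuropilins *Nrp1* and *Nrp2*, the plexins *Plxna1*, *Plxna4*, *Plxnb2*, *Plxnc1* and *Plxnd1*, and the class 4 semaphorins *Sema4a*, *Sema4b* and *Sema4d*. They were taken by symbol, each matching 1 Ensembl identifier, from the 55573 genes of a count matrix of sorted mouse microglia. RNA was sequenced from 4 mutant mice of genotype *Smad2/3 fl/fl;Cx3cr1 Cre* (labelled SmadKO) and 4 control littermates (labelled WT) at postnatal day 60, with 1 library per mouse. By the labels the controls were wild-type, but the Methods describe controls as mostly floxed heterozygotes with Cre, so both groups may carry Cre. The deleted genes, *Smad2* and *Smad3*, encode signal transducers of the TGFβ receptors. Cre expressed from the *Cx3cr1* locus acts in microglia and also in other brain macrophages. For these mutants the Methods describe cells positive for tdTomato, a Cre reporter, that were examined for CD45 and CD11b. These features do not separate such macrophages from microglia.

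Semaphorins are secreted or membrane-bound ligands first known for steering growing axons, and plexins are their receptors on the receiving cell. The cytoplasmic part of a plexin acts on small GTPases and so on the actin cytoskeleton and on integrin adhesion. Neuropilins lack a signalling domain of their own and join plexins as co-receptors for secreted class 3 semaphorins, and they also bind members of the VEGF family. In the immune system, class 4 semaphorins and several plexins act between lymphocytes, dendritic cells and macrophages, and microglia carry ligands as well as receptors.

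Between 35639502 and 41946479 reads per library were counted on genes. Expression is given as CPM, a gene's counts relative to the TMM-scaled library size, and mutants were compared with controls by edgeR's quasi-likelihood test over the 20153 genes that reached 10 counts in 4 or more libraries, with Benjamini-Hochberg adjustment and an adjusted p under 0.05 as the threshold. *Smad3* read 48.7 ± 7.13 CPM in controls and fell to 19.3 ± 11.03 CPM in mutants (adjusted p = 0.0429). *Smad2* stood at 74.6 ± 13.8 and 58.8 ± 15.0 CPM (adjusted p = 0.340). Both are given as mean ± SD over 4 mice. Reads were counted per gene and not per exon, so these values cannot show whether floxed exons were lost. With 1 library left out, the *Smad3* log2 fold change was -1.79 to -1.11, and the call held only without mutant 3 (adjusted p = 0.00432), with adjusted p-values of up to 0.110 without each of the other 7 libraries. *Xist* read 99.5 to 183 CPM in controls and at most 0.562 CPM in mutants, and the Y-linked *Ddx3y* read at most 0.224 CPM in controls and at least 9.74 CPM in mutants, so genotype and sex cannot be told apart in these libraries. The 10 genes lie on autosomes. All 8 microglial markers examined were detected in both groups. Their summed level was 27522 to 41510 CPM in controls and 5333 to 7486 CPM in mutants, with 7 of 8 lower. Among them *Cx3cr1*, the locus from which Cre is expressed, averaged 6629 CPM in controls and 1321 CPM in mutants. The part of the Cre allele in the *Cx3cr1* values was not tested. The summed level of 6 border-associated macrophage markers was 29.5 to 42.5 CPM in controls and 1599 to 2485 CPM in mutants, with 5 of 6 higher. The part of these marker differences in the results on receptors and ligands was not tested. The 16 markers of astrocytes, oligodendrocytes and neurons were highest in control 1 (6002 CPM summed) and mutant 1 (4997 CPM), against 820 to 2672 CPM in the other libraries.

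All 10 genes passed the filter on low counts, and each was detected in every library. *Plxnd1* was higher in mutants, whereas *Sema4d* and *Plxnb2* were lower, and the other 7 genes did not pass the test. Of all genes tested, 12.3% were called, 4.36% higher and 7.97% lower in mutants. Of the members, 1 of 10 was higher and 2 of 10 were lower, so the calls went in both directions. The median log2 fold change of the 10 was 0.47, beside 0.01 for all genes tested. The values of 5 of 10 members did not overlap between the groups, 2 with mutants above and 3 with mutants below, where 22.1% of all tested genes did not overlap, 9.04% with mutants above and 13.0% with mutants below. Without control 1 and mutant 1 together, *Plxnd1*, *Sema4d* and *Plxnb2* were still called (adjusted p = 0.0013, 0.0104 and 0.0390). In bulk libraries such as these, fewer cells of a type and less RNA per cell cannot be told apart.

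**Figure D1:**
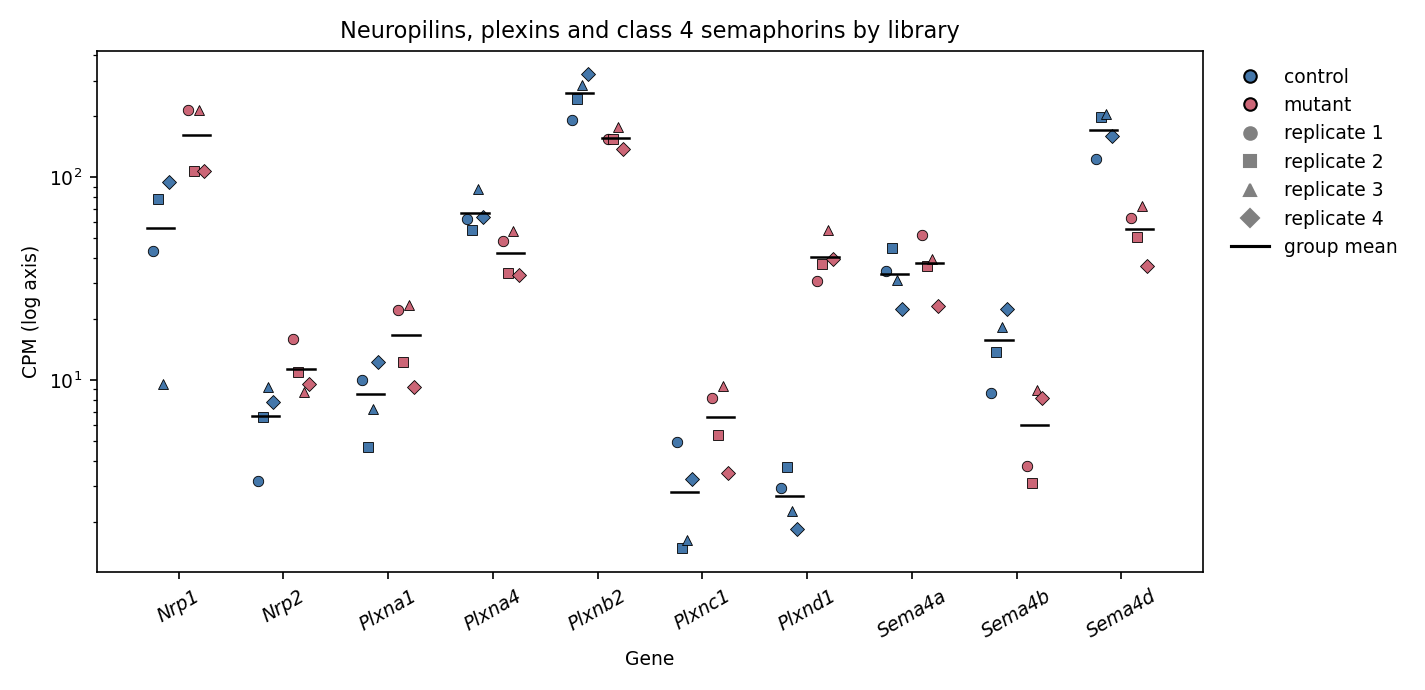
CPM after TMM scaling (log axis) of the 10 members in each of the 4 control and 4 mutant libraries, 1 point per mouse whose shape gives the replicate number, and a line at each group mean. *Plxnd1* lay at 1.86 to 3.72 CPM in controls and 30.7 to 55.0 CPM in mutants, and *Sema4d* at 123 to 205 CPM and 36.7 to 71.9 CPM.

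Among the ligands, *Sema4d* fell by 1.63 on the log2 scale. SEMA4D, also known as CD100, is a transmembrane semaphorin that can be shed from the cell surface, binds B plexins and, on immune cells, CD72. The gene lies on the minus strand at chr13:51685529-51793747 (GRCm38, GENCODE M21, ENSMUSG00000021451). Its level was 123, 199, 205 and 160 CPM in controls 1 to 4 and 62.8, 51.0, 71.9 and 36.7 CPM in mutants 1 to 4. The lowest control library was above the highest mutant library, so the groups did not overlap. The means were 172 ± 38.0 and 55.6 ± 15.2 CPM (SD, n = 4 each), which is 3.09-fold lower in mutants (SE 0.25 on the log2 scale, adjusted p = 0.00324 by edgeR). The call held whichever of the 8 libraries was left out, with log2 fold changes of -1.77 to -1.47 and adjusted p-values of 0.00348 to 0.0143. Beside it, the summed level of 5 neutrophil markers was 507 to 2423 CPM in controls and 231 to 745 CPM in mutants, overlapping between the groups, with *Camp* and *Ltf* lower and the other 3 not called. Microglial markers summed to 27522 to 41510 CPM in controls and 5333 to 7486 CPM in mutants, without overlap. T and B cell markers summed to 53.8 to 66.4 CPM in controls and 64.7 to 94.4 CPM in mutants, overlapping. The part of any of these cell types in the *Sema4d* result was not tested.

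*Sema4b*, a transmembrane semaphorin of the same class, stood lower in mutants without passing the test. It is encoded on the plus strand at chr7:80186841-80226527 (ENSMUSG00000030539). Control libraries 1 to 4 held 8.61, 13.7, 18.2 and 22.4 CPM, and mutant libraries 1 to 4 held 3.77, 3.11, 8.97 and 8.14 CPM. Control 1, the lowest control, lay just below mutant 3, so the groups overlapped at that point alone. The means of 15.8 ± 5.94 and 5.997 ± 2.99 CPM gave a log2 fold change of -1.39 (SE 0.43) that did not pass the test (adjusted p = 0.0685 by edgeR). Without control 1 it did, at -1.60 (adjusted p = 0.0486), and it also passed in DESeq2 (adjusted p = 0.0136) and when every library had to reach 10 counts (adjusted p = 0.0463).

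*Sema4a*, known as a co-stimulator of T cells, lay at chr3:88435959-88461182 on the minus strand (ENSMUSG00000028064). Its level was 34.4, 44.9, 31.3 and 22.4 CPM in controls 1 to 4 and 51.9, 36.6, 39.5 and 23.3 CPM in mutants 1 to 4. The groups overlapped over most of their range, and library 4 was the lowest of its group in both. The means of 33.3 ± 9.26 and 37.9 ± 11.7 CPM differed by less than the spread between mice, with a log2 difference of 0.19 (SE 0.28, adjusted p = 0.719 by edgeR) that came to -0.0041 without mutant 1.

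Among the receptors, *Plxnd1* rose by 3.91 on the log2 scale, more than any other member, and 119 of the 20153 tested genes had a larger log2 fold change. PLXND1 is best known as the receptor for SEMA3E in blood vessel patterning. The gene lies on the minus strand at chr6:115954811-115995005 (ENSMUSG00000030123). It read 2.95, 3.72, 2.27 and 1.86 CPM in controls 1 to 4 and 30.7, 37.3, 55.0 and 39.6 CPM in mutants 1 to 4. Every mutant library was above every control library, with a wide gap between them. The group means were 2.70 ± 0.818 and 40.7 ± 10.3 CPM (SD, n = 4 each), 15.1-fold higher in mutants (SE 0.30 on the log2 scale, adjusted p = 9.43e-05 by edgeR). Leaving out each library in turn gave log2 fold changes of 3.73 to 4.11 and adjusted p-values of 0.00035 to 0.000612.

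Since *Plxnd1* is an endothelial gene in many tissues, endothelial markers were examined beside it. The summed level of 6 such markers was 9.46 to 14.2 CPM in controls and 1.82 to 7.97 CPM in mutants. *Pecam1* made up most of this sum, at 9.48 ± 3.50 and 2.42 ± 1.90 CPM. Of the 6, *Cldn5*, *Tie1*, *Tek* and *Emcn* were too low to be tested, and *Cdh5* and *Pecam1* were not called (adjusted p = 0.607 and 0.0664). *Tek* was near 0 in both groups, and *Tie1* and *Emcn* averaged 0.201 and 0.169 CPM in mutants and 0.0490 and 0 CPM in controls. The border-associated macrophage markers moved in the same direction as *Plxnd1*. The part of endothelial or border-associated macrophage RNA in the result was not tested. Its ligand gene *Sema3e* was too low to be tested as well.

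The promoters are shown for *Plxnd1* and *Sema4d*, the members whose calls held whichever library was left out. Each is the 250 bases before a RefSeq transcript start on GRCm38.p6, read 5′ to 3′ on the gene's strand. Searched on both strands were the SMAD-binding words CAGACA and GTCTAGAC, the ETS-type word GGAAGT and the AP-1-type word TGANTCA, and matches are in capitals. The *Plxnd1* window is chr6:115995006-115995255 (minus strand), and the *Sema4d* window, the most upstream of 3 RefSeq starts, is chr13:51756684-51756933 (minus strand), inside the longer GENCODE gene.
*Plxnd1*: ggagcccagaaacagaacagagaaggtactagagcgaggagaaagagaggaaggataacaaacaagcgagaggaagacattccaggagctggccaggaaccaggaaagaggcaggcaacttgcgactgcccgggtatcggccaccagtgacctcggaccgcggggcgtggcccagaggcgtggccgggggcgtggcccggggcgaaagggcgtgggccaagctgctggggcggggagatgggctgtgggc
*Sema4d*: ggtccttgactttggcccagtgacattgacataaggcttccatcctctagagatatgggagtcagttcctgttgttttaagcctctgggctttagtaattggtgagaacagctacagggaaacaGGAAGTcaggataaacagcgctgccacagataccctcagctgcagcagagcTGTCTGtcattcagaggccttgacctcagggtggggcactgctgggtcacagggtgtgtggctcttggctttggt
None of the 4 words is in the *Plxnd1* window, which is 64.8% G and C. The *Sema4d* window, 52.0% G and C, holds GGAAGT with its first base 126 bases before the start, and CAGACA on the other strand, printed as TGTCTG, 75 bases before it. Of 32851 promoter windows of this length in the table, 19.7% hold GGAAGT, 17.1% CAGACA, 6.75% TGANTCA and 0.167% GTCTAGAC, so both words are common and a match is a description only. Of the other Sema4d starts, 1 has a TGANTCA match 239 bases before it and the other has none of the words. Among the 10 genes, 8 have an entry in the table, and *Plxna1* and *Plxna4* have none.

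*Plxnb2*, a receptor for class 4 semaphorins including SEMA4C and SEMA4D, fell by 0.74 on the log2 scale. The gene lies at chr15:89155549-89180788 on the minus strand (ENSMUSG00000036606). Control libraries 1 to 4 held 191, 242, 285 and 321 CPM, and mutant libraries 1 to 4 held 154, 154, 177 and 138 CPM. The mutant libraries were close together and all below the lowest control. The means of 260 ± 56.1 and 156 ± 16.1 CPM correspond to a 1.67-fold lower level in mutants (SE 0.18 on the log2 scale, adjusted p = 0.0310 by edgeR). The call was lost in most fits that left out 1 library, while the direction stayed the same. It held without control 1 and without mutant 3. Without each of controls 2, 3 and 4 and mutants 1, 2 and 4 it was lost. There the log2 fold change was -0.77 to -0.58 and the adjusted p 0.0594 to 0.0806. With libraries scaled to their totals in place of TMM the log2 fold change was -0.62 (adjusted p = 0.0549).

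*Plxna4*, a receptor for class 3 and class 6 semaphorins in growing neurons, lies at chr6:32144268-32588192 on the minus strand (ENSMUSG00000029765). It read 62.2, 54.8, 87.1 and 63.9 CPM in controls 1 to 4 and 48.5, 33.8, 54.4 and 33.2 CPM in mutants 1 to 4. The groups did not overlap, although control 2 and mutant 3 nearly met. The means were 67.0 ± 14.0 and 42.5 ± 10.6 CPM, a log2 difference of -0.66 (SE 0.22) that did not pass edgeR's test (adjusted p = 0.0875) and did pass DESeq2's (adjusted p = 0.0402).

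*Plxna1* encodes a plexin that binds neuropilins and, in dendritic cells and osteoclasts, the TREM2 and TYROBP complex. It lies at chr6:89316314-89362620 on the minus strand (ENSMUSG00000030084). Its level was 10.1, 4.69, 7.25 and 12.3 CPM in controls 1 to 4 and 22.1, 12.3, 23.4 and 9.30 CPM in mutants 1 to 4. Mutants 1 and 3 were above every control, mutant 2 was level with the highest control, and mutant 4 lay within the control range. The means of 8.57 ± 3.31 and 16.8 ± 7.03 CPM gave a log2 difference of 0.97 (SE 0.39, adjusted p = 0.143 by edgeR). Of its exon sequence, 10.7% overlaps *Gm26811* on the opposite strand, which the unstranded counts cannot separate. *Gm26811* averaged 0.0280 CPM in controls and 0.194 CPM in mutants, too low to be tested. The part of this overlap in the *Plxna1* values was not tested.

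*Plxnc1*, the receptor for SEMA7A, lies at chr10:94790866-94944835 on the minus strand (ENSMUSG00000074785) and had the lowest level per length of the 10 in both groups. It read 4.94, 1.48, 1.62 and 3.25 CPM in controls 1 to 4 and 8.13, 5.36, 9.41 and 3.51 CPM in mutants 1 to 4. As in *Plxna1*, mutants 1 and 3 were highest and mutant 4 lay within the control range. The log2 difference was 1.22 (SE 0.49, adjusted p = 0.139 by edgeR), from means of 2.82 ± 1.62 and 6.60 ± 2.67 CPM.

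Among the co-receptors, *Nrp1* varied widely between mice. NRP1 is the co-receptor of SEMA3A and of VEGFA, and the gene lies at chr8:128358604-128503363 on the plus strand (ENSMUSG00000025810). It read 43.2, 78.4, 9.62 and 94.4 CPM in controls 1 to 4 and 214, 107, 216 and 108 CPM in mutants 1 to 4. Every mutant library was above every control, but control 3 was far below the other controls, and mutants 1 and 3 stood apart from mutants 2 and 4. The means were 56.4 ± 37.8 and 161 ± 62.0 CPM, and the log2 difference of 1.51 (SE 0.59) did not pass edgeR's test with all libraries (adjusted p = 0.131) or with any library left out (adjusted p = 0.0906 to 0.222). DESeq2 called it (adjusted p = 0.0409).

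*Nrp2*, the co-receptor of SEMA3F and of VEGFC, lies at chr1:62703285-62818695 on the plus strand (ENSMUSG00000025969). Control libraries 1 to 4 held 3.18, 6.56, 9.23 and 7.80 CPM, and mutant libraries 1 to 4 held 15.9, 11.04, 8.77 and 9.58 CPM. Mutant 3 lay below control 3, so the groups overlapped, with mutant 1 the highest. The means of 6.69 ± 2.58 and 11.3 ± 3.19 CPM gave a log2 difference of 0.76 (SE 0.36, adjusted p = 0.201 by edgeR).

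**Figure D2:**
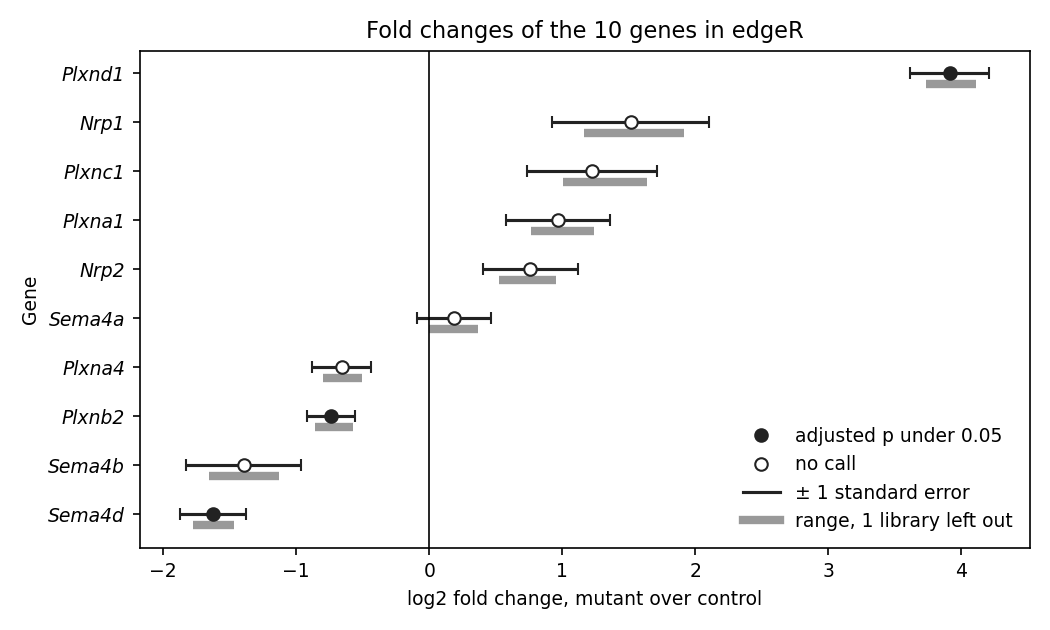
Log2 fold change of mutants over controls for the 10 members, with whiskers of 1 standard error and, in grey, the range over the fits that each left out 1 library. *Plxnd1* (3.91), *Sema4d* (-1.63) and *Plxnb2* (-0.74) passed the test with all libraries, and the *Sema4a* range crosses 0.

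Levels were compared between genes per kilobase of exon. In controls, the median over 4 libraries ran from 34.1 CPM per kilobase in *Plxnb2* and 23.4 in *Sema4d* through 6.22 in *Nrp1*, 6.08 in *Sema4a*, 4.47 in *Plxna4* and 2.83 in *Sema4b* to 0.956 in *Plxna1*, 0.606 in *Nrp2*, 0.357 in *Plxnd1* and 0.292 in *Plxnc1*. In this order neighbouring genes overlapped over the libraries, except that *Sema4d* lay above *Nrp1* and *Sema4b* above *Plxna1* in all of them. In mutants the order was *Plxnb2* at 20.0, *Nrp1* at 16.4, *Sema4d* at 7.41, *Sema4a* at 7.04, *Plxnd1* at 5.27, *Plxna4* at 2.92, *Plxna1* at 1.90, *Sema4b* at 1.05, *Nrp2* at 0.871 and *Plxnc1* at 0.808 CPM per kilobase. Here *Nrp1* lay above *Sema4d* and *Plxnd1* above *Plxna4* without overlap, and the other neighbours overlapped. *Plxnd1* thus stood at place 9 of 10 in controls and place 5 in mutants, and *Plxnb2* was first in both.

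The same levels were expressed as shares within each receptor or ligand class. Over the 9 plexin genes, *Plxnd1* took a median of 0.925% (range 0.498% to 1.30%) in controls and 17.4% (12.4% to 19.2%) in mutants. The *Plxnb2* share was 79.0% (73.3% to 81.6%) in controls and 60.8% (57.4% to 63.0%) in mutants. *Plxnb2* was therefore the major plexin transcript in both groups, with *Plxnd1* second in mutants. Over the 20 semaphorin genes, *Sema4d* took 41.8% (36.6% to 50.5%) in controls and 18.5% (16.0% to 22.3%) in mutants, and *Sema3b*, which encodes a secreted class 3 semaphorin, took 11.9% (6.94% to 18.0%) and 27.0% (22.8% to 37.1%). Neither of these pairs of ranges overlapped between the groups. *Nrp1* made up 92.1% to 96.8% of neuropilin level in mutants and 93.5% to 94.3% in controls 1, 2 and 4, but 55.8% in control 3. The shares were described and not tested, and since shares of a class sum to a fixed total they do not move independently.

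**Figure D3:**
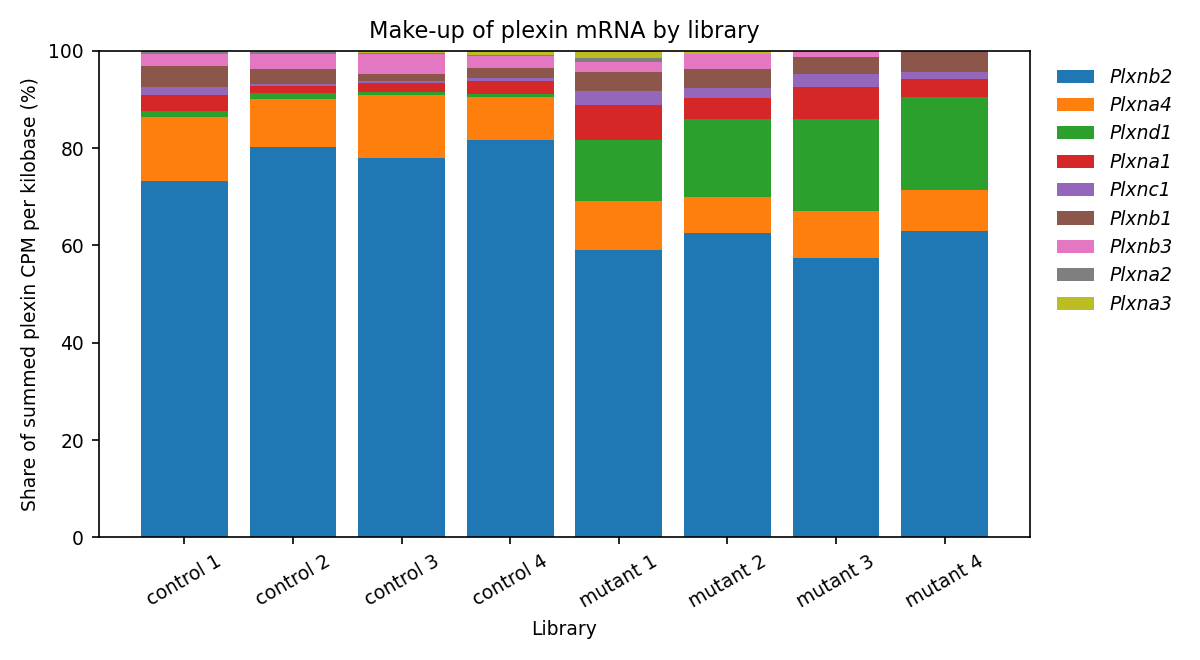
Share of the summed level per kilobase of 9 plexin genes taken by each plexin, in percent, 1 stacked bar per library starting at 0. The *Plxnd1* share was at most 1.30% in controls and at least 12.4% in mutants, while *Plxnb2* remained the largest share.

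The remaining semaphorin and plexin genes number 21, of which 18 were tested, with 1 higher, 1 lower and 16 not called. Of all tested genes, 12.3% were called, 4.36% higher and 7.97% lower in mutants. *Sema6d*, which encodes a transmembrane ligand of A plexins, rose. It read 14.4, 10.6, 17.8 and 7.40 CPM in controls 1 to 4 and 33.3, 22.7, 42.03 and 28.5 CPM in mutants 1 to 4, with no overlap. The means of 12.5 ± 4.51 and 31.6 ± 8.16 CPM are 2.52-fold higher in mutants (log2 fold change 1.34, SE 0.30, adjusted p = 0.0219 by edgeR), and the call was lost without control 2 (1.26, adjusted p = 0.0701) or mutant 3 (1.17, adjusted p = 0.0549). It was also lost without control 1 and mutant 1 together, the libraries with the highest neural and glial markers (adjusted p = 0.0692). The log2 fold change was then 1.38, in a fit with fewer libraries. In that fit *Limk1* and *Rap1b*, described below, also lost their calls (adjusted p = 0.0728 and 0.110). *Sema4c*, *Cd72*, *Trem2*, *Mical3*, *Fes* and *Furin* kept theirs. *Sema4c*, the other gene called and named after its value was seen, fell by 0.91 on the log2 scale, from 33.7 ± 8.24 to 17.9 ± 3.77 CPM (adjusted p = 0.0401). This call was kept without control 1 and without mutant 1 and lost without each of the other 6 libraries (-1.005 to -0.79, adjusted p = 0.0545 to 0.115). Of the genes not called, the most abundant were *Sema3b* at 29.97 ± 11.1 and 50.1 ± 3.50 CPM (log2 difference 0.74, adjusted p = 0.0998), *Sema3f* at 12.5 ± 6.36 and 10.3 ± 6.72 CPM and *Plxnb1*, the high-affinity SEMA4D receptor, at 10.6 ± 2.88 and 12.4 ± 0.896 CPM (log2 difference 0.23, adjusted p = 0.586).

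Of 11 other receptors and co-receptors of semaphorins, 10 were tested, with 1 higher, 1 lower and 8 not called. The share called among all tested genes was 12.3%. *Cd72*, which encodes an inhibitory receptor for SEMA4D known from B cells, rose. It read 13.1, 16.4, 14.9 and 10.1 CPM in controls 1 to 4 and 214, 121, 179 and 127 CPM in mutants 1 to 4. All mutant libraries were far above all controls, and the means of 13.6 ± 2.71 and 160 ± 44.5 CPM gave a log2 fold change of 3.56 (SE 0.26, adjusted p = 7.84e-05 by edgeR) that was called in all 8 fits leaving out a library. Of the receptor genes for SEMA4D, *Cd72* was thus higher and *Plxnb2* lower in mutants, and *Plxnb1* did not pass the test. The B cell markers *Cd79a*, *Cd79b* and *Ms4a1* were not called (adjusted p = 0.945, 0.892 and 0.671), and the summed level of 5 T and B cell markers was 53.8 to 66.4 CPM in controls and 64.7 to 94.4 CPM in mutants, with *Cd3e* higher. Of *Cd72* exon sequence, 41.6% overlaps *Tesk1* on the opposite strand, and *Tesk1* had a log2 difference of -0.47 (adjusted p = 0.192).

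*Trem2*, which encodes a lipid-sensing receptor of microglia and a partner of PLXNA1, fell by 1.35 on the log2 scale (SE 0.23, adjusted p = 0.00496 by edgeR). Its level was 870, 941, 1454 and 1391 CPM in controls 1 to 4 and 341, 489, 515 and 477 CPM in mutants 1 to 4, with no overlap. *Tyrobp*, the adaptor of TREM2, stood at 1369 ± 304 and 1385 ± 222 CPM (log2 difference 0.02, SE 0.20, adjusted p = 0.971). *Itgb1*, an integrin subunit that pairs into a SEMA7A receptor, had a log2 difference of -0.24 (adjusted p = 0.480). Of 9 VEGF family ligands and receptors that use neuropilins, 7 were tested and none was called by edgeR, with 2 at an unadjusted p under 0.05, where 28.7% of all tested genes were. Of the 7, 5 stood higher and 2 lower in mutants. The most abundant were *Gipc1* at 86.3 ± 8.44 and 73.5 ± 11.9 CPM (log2 difference -0.23, adjusted p = 0.393 by edgeR) and *Vegfb* at 52.2 ± 13.3 and 63.4 ± 14.6 CPM (0.28, adjusted p = 0.470). *Vegfa* stood at 7.88 ± 1.60 and 12.3 ± 1.59 CPM (log2 difference 0.64, adjusted p = 0.111 by edgeR). *Vegfa* and *Pgf* were the 2 genes of the list that DESeq2 called (adjusted p = 0.0266 and 0.00445).

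**Figure D4:**
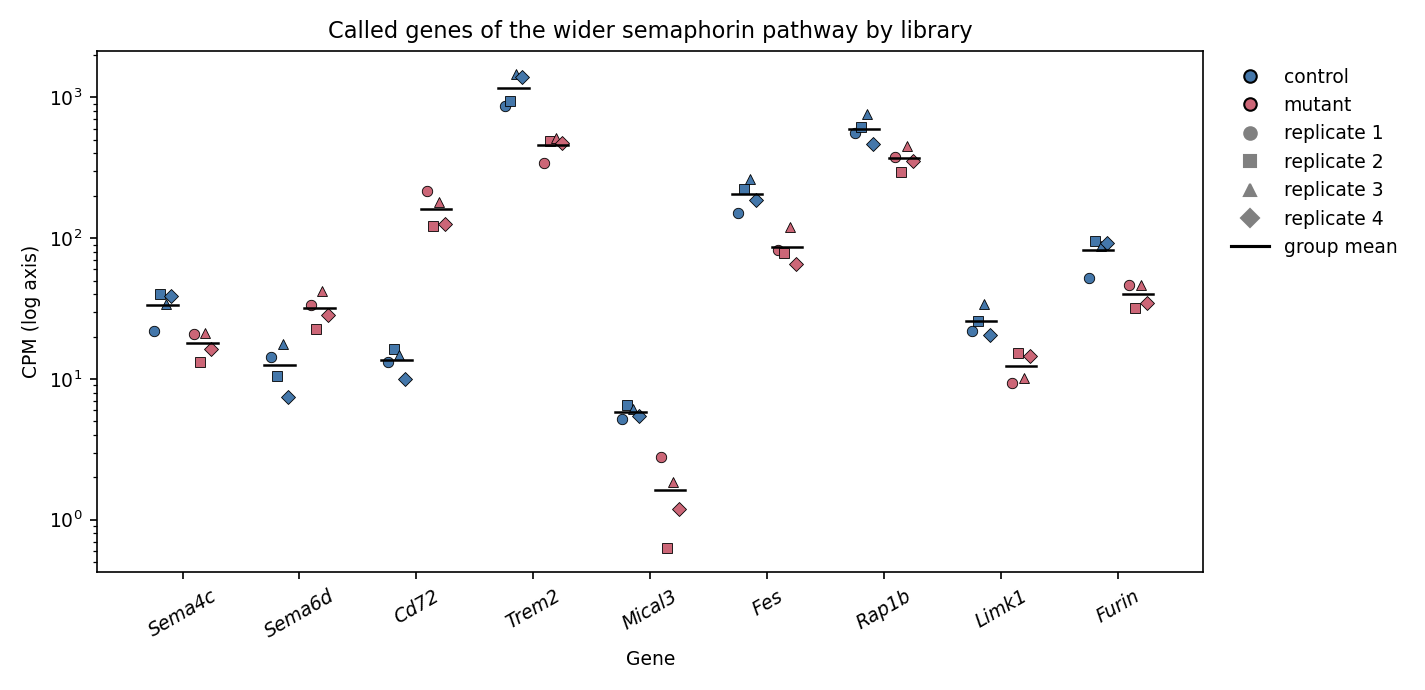
CPM after TMM scaling (log axis) of the called semaphorin, plexin, receptor and partner genes outside the 10 members, 1 point per mouse in 4 controls and 4 mutants, with a line at each group mean. *Cd72* lay at 10.1 to 16.4 CPM in controls and 121 to 214 CPM in mutants, and *Fes* at 152 to 261 and 65.9 to 120 CPM.

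Inside the cell, plexins act through MICAL oxidoreductases, CRMP proteins, GTPase regulators and LIM kinases. All 33 genes of this list were tested, with 4 lower and 29 not called. Of all tested genes, 12.3% were called, 4.36% higher and 7.97% lower in mutants. Values did not overlap between the groups for 9 of the 33, 2 with mutants above and 7 with mutants below. Among all tested genes 22.1% did not overlap, 9.04% with mutants above and 13.0% with mutants below. *Fes*, a tyrosine kinase that binds A plexins, fell by 1.25 on the log2 scale (SE 0.24, adjusted p = 0.00926 by edgeR). It read 152, 222, 261 and 186 CPM in controls 1 to 4 and 81.7, 77.9, 120 and 65.9 CPM in mutants 1 to 4, without overlap, and its call held with any library left out. *Limk1*, a kinase that phosphorylates cofilin, fell from 25.6 ± 6.15 to 12.3 ± 3.01 CPM (log2 fold change -1.05, adjusted p = 0.0255), and *Mical3*, which encodes an actin-oxidizing enzyme of the MICAL family, fell from 5.83 ± 0.578 to 1.61 ± 0.927 CPM (-1.85, adjusted p = 0.0322). *Rap1b*, a small GTPase of the family on which the plexin GAP domain acts, fell by 0.71 (adjusted p = 0.0485) and was named after its value was seen. These 3 calls were each lost in some fits that left out 1 library, with the direction unchanged. That of *Limk1* was lost without control 2, control 3, mutant 1 or mutant 3 (-1.05 to -0.88, adjusted p = 0.0510 to 0.0711), that of *Mical3* without any library but mutants 1 and 2 (-1.93 to -1.73, adjusted p = 0.0526 to 0.0855), and that of *Rap1b* without any but control 4 and mutant 3 (-0.74 to -0.57, adjusted p = 0.0701 to 0.121). The most abundant genes without a call were *Cfl1* (log2 difference -0.15, adjusted p = 0.540), *Rac1* (-0.44, adjusted p = 0.0633) and *Rhoa* (-0.44, adjusted p = 0.0579). Of *Rac1* exon sequence, 51.4% overlaps *Daglb* on the opposite strand. The overlap with opposite-strand genes was 16.5% for *Cfl1* and 4.75% for *Rhoa*.

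Of 4 proteases that shed or process semaphorins, *Furin*, a convertase that cleaves class 3 semaphorins, fell from 82.2 ± 20.1 to 39.8 ± 7.82 CPM (log2 fold change -1.05, SE 0.23, adjusted p = 0.0185 by edgeR). The call was lost without control 2, control 3, mutant 2 or mutant 4 (-1.01 to -0.95, adjusted p = 0.0516 to 0.0590). *Adam17* stood at 131 ± 21.9 and 63.5 ± 29.7 CPM (log2 difference -1.04, adjusted p = 0.0578), *Adam10* at 102 ± 13.4 and 73.2 ± 23.7 CPM (-0.48, adjusted p = 0.225), and *Mmp14*, a membrane protease that releases SEMA4D, at 85.4 ± 26.3 and 127 ± 18.1 CPM (0.57, adjusted p = 0.132).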

How the data were processed

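RNA-seq counts of sorted microglia from 4 mutant and 4 control mice were analysed, grouped by the sample labels. In the Methods, alignment to mm10 used Rsubread and counting per gene used featureCounts, and the counts that the authors deposited are whole numbers without normalization. The file headers name subread, and its version and the annotation are not given in the sources used here. The labels name Nextera XT single-end libraries and the Methods NEBNext paired-end libraries, both unstranded. Reads in exons that overlap on opposite strands therefore cannot be assigned by strand. The Methods do not say whether such reads were counted for either gene. For the *Smad2/3* mutants the Methods cite a different deposit, so the match of these libraries to that experiment rests on genotype and cell type. A second deposited table holds the authors' own DESeq2 comparison (fold changes and p-values; DESeq2 1.28 per the submitters' processing notes) and was not used.

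Genes reaching 10 counts in 4 or more libraries were tested with edgeR 4.0.16 in R 4.3.3 (TMM, estimateDisp, glmQLFit, glmQLFTest, no block), with Benjamini-Hochberg adjustment over all 20153 genes and calls at an adjusted p under 0.05. The standard error is the size of the log2 fold change divided by the square root of F. The biological coefficient of variation was 0.542, so the spread between mice, more than counting error, limits precision. Replicates within a group differed by more than sampling noise. The labels do not say whether the mice shared litters or batches. The tests were also run on simulated counts, drawn with mean levels and dispersions taken from these data. Levels per kilobase used merged exons of GENCODE M21 on GRCm38, which 55394 of 55573 identifiers matched, and promoters came from RefSeq GRCm38.p6. Tables and plots used Python 3.11.15, pandas 2.3.3, numpy 2.4.6 and matplotlib 3.10.9.

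The named genes are all 10 members and, of the other lists, every gene called with an absolute log2 fold change of at least 1 and up to 3 of the most abundant genes without a call. The members and all lists were chosen with earlier results of these data known. Alternatives were DESeq2 1.42.0, RLE size factors, library totals, no filter, a filter of 10 counts in all libraries, a replicate block, leaving out genes of X and Y, and leaving out each library. Leaving out control 1 and mutant 1 together was chosen after seeing the data. The other experiments of the study were not analysed here.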

Additional observations from a re-analysis of the deposited data

How the results depend on the processing

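Over all genes, 2485 were called by edgeR, 4751 by DESeq2, and 1567 to 2499 with 1 library left out (1567 without control 3, 1572 without control 2). Members called numbered 3, 6 with DESeq2 (20.7% of all genes it tested) and 2 to 4 with 1 library left out. Of the other semaphorins and plexins (18 tested by edgeR) and the receptors and co-receptors (10 tested), 4 were called. Called genes of these lists numbered 7 with DESeq2 and 2 to 5 with 1 library left out (2 without control 2 or mutant 3). Of the VEGF family genes, plexin partners and proteases (7, 33 and 4 tested by edgeR), 5 were called. Here the calls numbered 13 with DESeq2, and 8 when all libraries had to reach 10 counts. With 1 library left out they numbered 1 to 5 (1 without control 2, 2 without control 3 or mutant 4, 3 without mutant 2). Beside these counts, edgeR called 12.3% of all genes tested and DESeq2 20.7%, and the stricter filter called 2725 genes in all. DESeq2 also called *Nrp1* (1.52), *Plxna4* (-0.66) and *Sema4b* (-1.40), and the stricter filter called *Sema4b* (-1.38). *Plxnb2* missed the threshold with library totals (-0.62), a scaling that moved the median of all genes to 0.13. With 1 library left out, *Plxnb2* ranged from -0.86 to -0.58, *Sema4b* from -1.65 to -1.13, and *Sema4a* from -0.0041 (without mutant 1, reversed) to 0.37. Without control 1 and mutant 1 together, 1917 genes were called. Of 160 refits of members, 144 kept direction and side of the threshold. The cause of these changes was not tested. The mice share only replicate numbers: same-number deviations correlated at 0.166, 0.0183, 0.144 and 0.114 across genes, and mutant 2 correlated best with control 1. With the replicate block 2383 genes were called, 4 of them members: *Plxna4* (-0.67) and *Sema4b* (-1.45) passed and *Plxnb2* (-0.72, adjusted p = 0.0531) did not. Under the block *Limk1* (adjusted p = 0.0525), *Mical3* (0.0552), *Furin* (0.0576) and *Sema4c* (0.0923) also missed the threshold.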

Other observations

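Mutants 1 and 3 were both above mutants 2 and 4 in 6 of the 10 members (*Nrp1*, *Plxna1*, *Plxna4*, *Plxnc1*, *Sema4a* and *Sema4d*), a pattern noticed after the values were seen. Among all 20153 tested genes it was found in 4190 (20.8%). It is a description of 4 libraries, with no test, and the labels give no difference between these mice.

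Chosen after its value was seen, *Pgf*, which encodes placental growth factor, a VEGF family ligand that binds NRP1, read 0.538 to 1.34 CPM in controls and 1.25 to 5.45 CPM in mutants (log2 difference 1.96, SE 0.57, adjusted p = 0.0537 by edgeR), with 1 mutant below the highest control.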
